A study of Mus musculus with 6 samples.

Results

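The 6 genes described here, of 20907 measured in the muscle samples, are the muscle ankyrin repeat genes Ankrd1, Ankrd2 and Ankrd23 and the cysteine- and glycine-rich LIM protein genes Csrp1, Csrp2 and Csrp3. The genes were chosen by name, with their old and young values from these same arrays already known. Their differences between the ages are therefore given as a description, without a test. Of the 55681 gene probes on the array, 7 matched a member through their RefSeq accession, 2 of them for Ankrd23 and 1 for each other gene. Of the 20907 measured genes, 13847 had a symbol, and the rest were transcript names without a match, each counted as a gene. Shares over all genes include them. Total RNA came from the gastrocnemius, a mainly fast-twitch muscle of the calf, of male mice. The young group held 3 samples at 13 weeks of age and the old group 3 samples at 25 months. No treatment or genetic change is named for either group, and the strain is not given in the sources used here. Each sample was labelled with Cy3 and read on a single-colour Agilent array. The comparison between ages addressed which transcripts differ in muscle that has wasted with age.

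The muscle ankyrin repeat proteins sit on the giant spring protein titin, in the elastic part of the sarcomere, and can also enter the nucleus. Ankrd1, also called CARP, is scarce in healthy adult limb muscle and abundant in heart, and it is induced by stretch, injury and loss of nerve supply. Ankrd2 is found mainly in slow fibres and responds to stretch, and Ankrd23, also called DARP, was first linked to energy metabolism. The Csrp proteins carry a pair of LIM domains, zinc-binding modules that dock other proteins, and bind alpha-actinin. Csrp3, the muscle LIM protein, belongs to striated muscle and is enriched in slow fibres and heart, while Csrp1 and Csrp2 are best known from smooth muscle and other cells with actin bundles.

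All 6 arrays lay on 1 slide and were read in 1 scan. Between 49.9% and 54.8% of the gene-probe spots were well above background, with no spot saturated. Precision is limited by the number of arrays. Old replicate 1 stood apart in the control spots. Its negative controls averaged 61.3 against 51.9 to 55.1 elsewhere, and its spike-in slope was 0.840 against 0.925 to 0.941. Row 1 of the slide held the 3 young arrays together with old replicate 1, and row 2 held the other old arrays. Nothing in the labels states that the samples of an age came from separate animals, so p-values reflect only sample-to-sample spread, part of which may be technical. Levels are log2 values relative to the 75th percentile of the same array, so 0 is that percentile and 1 unit is a 2-fold step. Levels of different probes are not compared with each other. In whole muscle, fewer cells of a type and less RNA per cell cannot be told apart.

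Ankrd1 was 10.7-fold higher on average in old muscle, Csrp3 2.29-fold, Csrp1 1.70-fold and Ankrd2 1.64-fold. Csrp2 was 1.25-fold lower and Ankrd23 lay within 1.05-fold. The old and young arrays did not overlap for 2 of the 6 genes, Ankrd1 and Csrp1, both higher in old muscle. Over all genes 21.8% did not overlap, 7.92% with the old arrays higher and 13.9% with them lower. None of the 6 (0 of 6) passed limma's test over all genes at a Benjamini-Hochberg adjusted p under 0.05, which called 0.254% of the genes. Of those 53 genes, 41 (0.196% of all) were higher and 12 (0.0574%) lower in old muscle. Nothing is read from these counts, since the genes were proposed with this contrast in view. At an unadjusted p under 0.05 the test in limma held 3021 genes. All 7 probes were well above background on all 6 arrays. Each was read from 1 spot per array, and none of those spots was an outlier.

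The DNA just upstream is shown for the 3 members with the widest range over the arrays. No link between these letters and the levels was tested. Ankrd1 was highest on old replicate 3, whereas Csrp3 and Ankrd2 were highest on old replicate 1. The 250 bases before the transcription start are taken from RefSeq, build GRCm38.p6, on the strand of the gene, and capitals mark every motif match listed afterwards. Of the 6 genes, 5 had an entry, with 8 start sites in all. The Ankrd1 stretch is chr19:36119845-36120094 on the minus strand. The Ankrd2 stretch is chr19:42035777-42036026 on the plus strand. The Csrp3 stretch is chr7:48848052-48848301 on the minus strand, before the outermost of its 2 starts.
Ankrd1: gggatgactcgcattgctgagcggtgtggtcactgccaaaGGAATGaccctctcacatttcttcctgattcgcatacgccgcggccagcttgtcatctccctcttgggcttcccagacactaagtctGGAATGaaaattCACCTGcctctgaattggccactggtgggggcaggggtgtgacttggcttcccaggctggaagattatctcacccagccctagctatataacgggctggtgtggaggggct
Ankrd2: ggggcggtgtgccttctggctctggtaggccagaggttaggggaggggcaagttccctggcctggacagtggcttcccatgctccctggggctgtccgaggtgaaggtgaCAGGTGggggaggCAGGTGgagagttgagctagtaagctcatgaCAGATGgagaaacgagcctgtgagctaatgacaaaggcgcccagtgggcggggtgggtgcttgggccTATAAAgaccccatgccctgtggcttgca
Csrp3: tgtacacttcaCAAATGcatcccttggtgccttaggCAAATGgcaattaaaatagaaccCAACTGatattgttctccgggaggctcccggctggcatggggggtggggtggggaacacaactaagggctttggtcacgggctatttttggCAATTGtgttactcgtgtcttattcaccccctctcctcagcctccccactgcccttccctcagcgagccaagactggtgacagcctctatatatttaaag

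Both strands were searched for 6 motifs. CATTCC is the core of the element that TEAD factors bind, and CANNTG is the E-box of the MyoD family. TATAAA is the core promoter box, and TGANTCA is the element of Fos and Jun dimers. The others were the CArG box of SRF and the MEF2 site. No match of one motif overlapped a match of another in the stretches shown. The Ankrd1 stretch held CATTCC at 2 places, both as GGAATG on the gene's strand, which begin at positions -210 and -123 relative to the start. Of all 32851 start sites, 12.6% held CATTCC and 1.02% held it at least at 2 places. One of the 2 Ankrd23 starts held it once, and 2 of the 8 member starts held it in all. E-box letters were found at 1 place for Ankrd1, 3 places for Ankrd2 and 4 places for each start of Csrp3. They occurred before 7 of the 8 member starts and before 66.2% of all starts, with 31.8% holding at least 2. The exact letters TATAAA were found for Ankrd2 only, where they began at position -29, and in 12.4% of all starts. Variant forms of this box were not searched for, so a start without these letters may still hold one. TGANTCA, the CArG box and the MEF2 site were in 0 of 8 member starts, against 6.75%, 1.47% and 2.92% of all. Each match is a description of letters, not of a factor bound there.

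Ankrd1, the stretch- and injury-induced member, had levels of 1.58, 1.06 and 0.74 on young replicates 1 to 3. On old replicates 1 to 3 its levels were 3.55, 3.82 and 6.28. Every old array was above every young one, by at least 1.97, and old replicate 3 stood 2.45 above the next old array. The mean level was 1.13 ± 0.42 in young muscle and 4.55 ± 1.50 in old muscle (SD, n = 3 each), a difference of 3.42 ± 0.70 (SE, here and for later differences). Expressed against the young mean, old replicate 3 was 35.5-fold higher. The spread among the old arrays was 3.53 times that among the young ones. Before scaling, the processed signal of this probe ran from 351 to 899 in young muscle and from 3650 to 21003 in old muscle. Without old replicate 3 the difference was 2.56, and without old replicate 1 it was 3.92.

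Ankrd2, the slow-fibre member of the family, had levels of 5.85, 6.88 and 6.69 on the young arrays and 7.77, 6.88 and 6.93 on the old ones. Old replicate 1 was highest and young replicate 1 lowest, while the other 4 arrays lay between 6.69 and 6.93 and did not separate the ages. The difference was 0.72 ± 0.36, between means of 6.48 ± 0.55 and 7.19 ± 0.50 (SD, n = 3). It was 0.41 without young replicate 1 and 0.43 without old replicate 1.

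Ankrd23, the third member on titin, was read by 2 probes. The brighter probe gave levels of 8.69, 8.70 and 9.25 in young muscle and 8.13, 9.14 and 9.16 in old muscle. The other probe gave 5.74, 5.78 and 6.60, then 5.01, 6.37 and 6.19. Both probes placed old replicate 1 below all other arrays and young replicate 3 above them, and the ages overlapped with both. The differences were -0.071 ± 0.33 and -0.18. The sign turned to 0.27 without old replicate 1, 0.11 without young replicate 3 and 0.050 with quantile normalization.

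**Figure D1:**
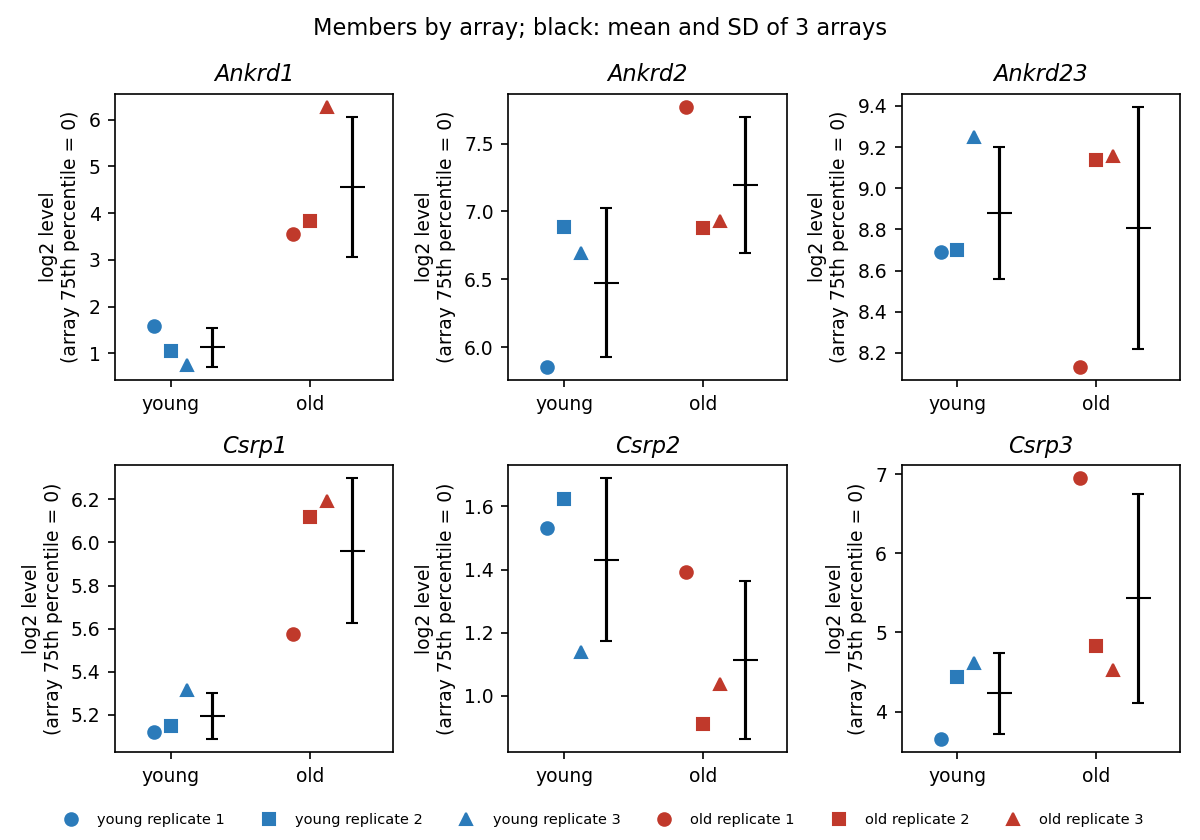
Log2 level of each of the 6 genes on each array, relative to the array's 75th percentile, with a separate vertical scale for each gene. Blue points are young arrays, red points old arrays, and the black bar gives the mean and SD of 3 arrays. Only Ankrd1 and Csrp1 have old arrays that all lie above the young ones, and a single old array carries the high mean of Csrp3.

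Csrp1, an actin-bundle LIM protein of smooth muscle and other cells, had levels of 5.12, 5.15 and 5.32 on the young arrays. Its levels were 5.58, 6.12 and 6.19 on the old arrays. The ages did not overlap, with a gap of 0.26 between old replicate 1 and young replicate 3. The young mean was 5.19 ± 0.11 and the old mean 5.96 ± 0.34 (SD, n = 3), a difference of 0.77 ± 0.21. Leaving out each array in turn gave 0.65 to 0.96.

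Csrp2, the smooth-muscle LIM protein, had levels of 1.53, 1.62 and 1.14 in young muscle and 1.39, 0.91 and 1.04 in old muscle. Old replicate 1 lay among the young arrays and young replicate 3 among the old ones. The difference was -0.32 ± 0.21. It was the smallest range of the 6 genes, 0.71 over all arrays.

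Csrp3, the muscle LIM protein of the Z-disc, had levels of 3.65, 4.43 and 4.62 on the young arrays and 6.95, 4.82 and 4.52 on the old ones. Old replicate 1 stood 2.12 above the next array, and old replicate 3 lay below young replicate 3. The means were 4.24 ± 0.51 and 5.43 ± 1.32 (SD, n = 3), a difference of 1.20 ± 0.64. Without old replicate 1 it was 0.44, so that array decided most of the difference. Raw median signals at the Csrp3 spot were 4523, 6611 and 6072 in young muscle and 43918, 9527 and 7344 in old muscle, over a local background of 33 to 37.

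The old samples therefore did not carry the members together. Centred on each gene's own mean over the 6 arrays, old replicate 1 was at 2.11 for Csrp3 and 0.94 for Ankrd2, but at -0.71 for Ankrd23, 0.71 for Ankrd1 and 0.12 for Csrp2. Old replicate 3 was at 3.44 for Ankrd1 and 0.61 for Csrp1, but at 0.094 for Ankrd2 and -0.31 for Csrp3. Old replicate 2 was at 0.98 for Ankrd1 and 0.54 for Csrp1, with Csrp3 and Ankrd2 at -0.0099 and 0.044. Of all genes, 14 (0.0670%) stood at least as far above the next array on old replicate 1 as Csrp3, and 166 (0.794%) at least as far as Ankrd2. On old replicate 3, 11 genes (0.0526%) stood at least as far above the next array as Ankrd1. On old replicate 1, 556 genes (2.66%) lay at least as far below the next array as Ankrd23. These counts include the member itself. The control spots of old replicate 1 also stood apart, and their part in its values was not tested.

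**Figure D2:**
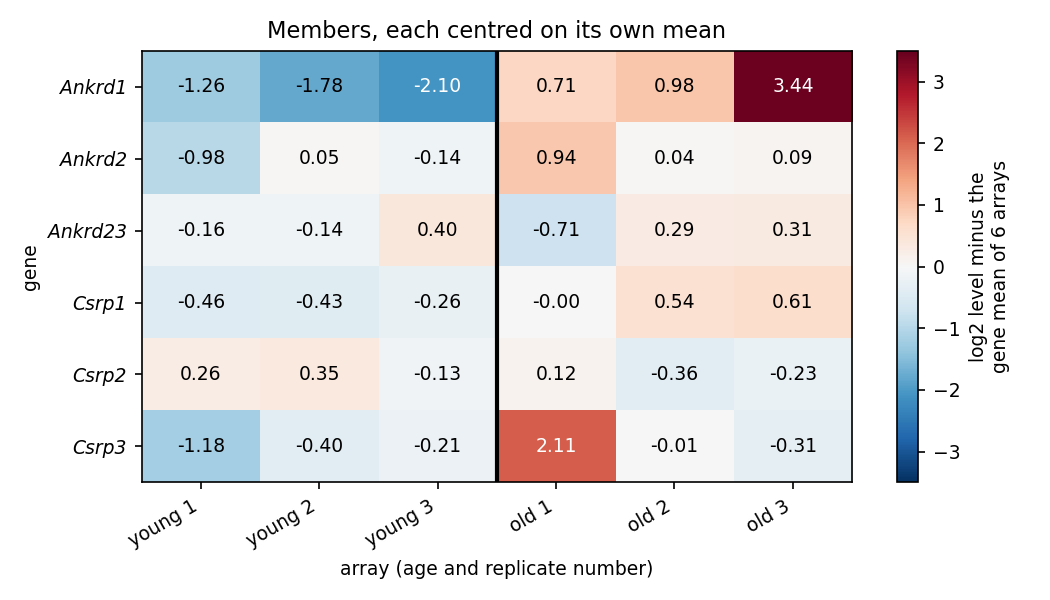
Log2 level of each gene minus its mean over the 6 arrays, with genes in rows and arrays in columns, and the black line between young and old. Red is above and blue below the gene's mean. Ankrd1 peaks on old replicate 3 at 3.44 and Csrp3 on old replicate 1 at 2.11, where Ankrd23 is lowest at -0.71.

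Row 1 of the slide is the only row with both ages, and it compares old replicate 1 with the 3 young arrays. Within it the differences were 2.43 for Ankrd1, 1.30 for Ankrd2, -0.75 for Ankrd23, 0.38 for Csrp1, -0.040 for Csrp2 and 2.71 for Csrp3. The same values result from a fit with the row as a block, since row 2 holds old arrays only. These values rest on a single old sample, whose own deviation and its age cannot be told apart. The means of Ankrd1, Ankrd2, Csrp1 and Csrp3 were higher in old muscle, and that of Csrp2 lower, under each of the 16 alternatives run. Several of these, such as a change of the variance model, cannot change a member's difference.

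**Figure D3:**
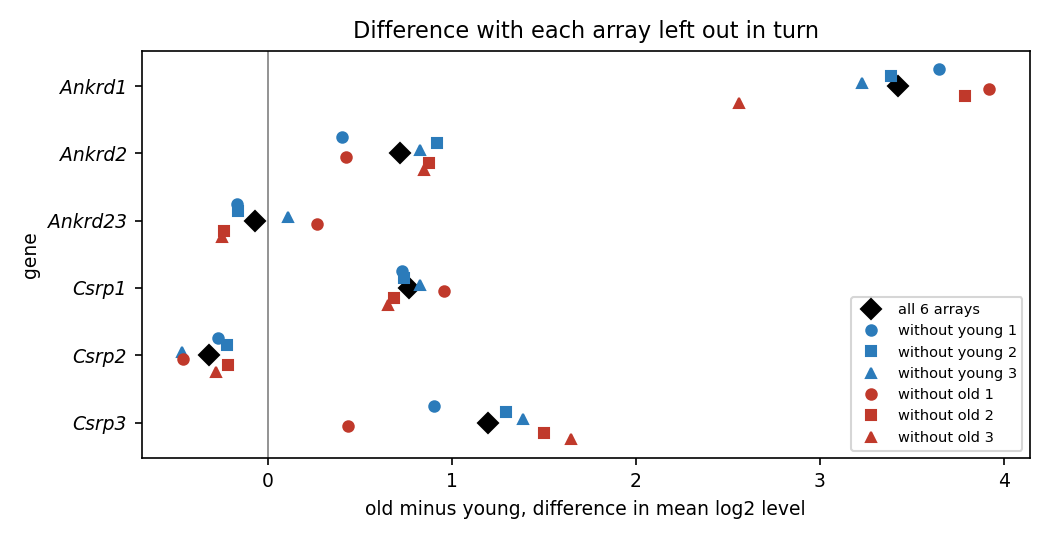
Difference between the old and young mean log2 level of each gene, with all 6 arrays (black diamonds) and with each array left out in turn (blue, a young array; red, an old array). Leaving out old replicate 1 moves Csrp3 from 1.20 to 0.44, and leaving out old replicate 3 moves Ankrd1 from 3.42 to 2.56.

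The genes most like a member were sought for the 3 members with the widest range over the arrays, Ankrd1 (5.53), Csrp3 (3.29) and Ankrd2 (1.92). Likeness was the root-mean-square distance between centred log2 levels over the 6 arrays, among 13157 other genes with a symbol. The distance is a description over arrays that share their age groups. Genes were chosen by it on these same arrays, so a highest array shared with the member follows from the choice. Nearest to Ankrd1 were Atf3, a stress-induced transcription factor (0.33), Orm2, an acute-phase plasma protein (0.38), Krt8, a keratin of simple epithelia (0.58), and Rrad, a small GTPase (0.61). Atf3 had levels of 0.38, -0.71 and -1.16 on the young arrays and 1.56, 1.56 and 4.26 on the old ones, so that it too was highest on old replicate 3. Krt8 was well above background on 3 of the 6 arrays. Its levels were -4.36, -5.90 and -5.82 on the young arrays and -2.02, -1.93 and -0.76 on the old ones. Its distance to Ankrd1 therefore rests in part on dim young values.

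Nearest to Csrp3 were Eppk1, the cytolinker epiplakin (0.35), Mbd1, which binds methylated DNA (0.35), Wdr92 (0.35) and Micall2 (0.39). All 4 were highest on old replicate 1. For Wdr92 the levels were 2.79, 3.29 and 3.04 on the young arrays and 6.26, 3.16 and 3.49 on the old ones. The other probes of Mbd1 lay at distances of 1.07 and 0.86, and the other Wdr92 probe, well above background on 1 array, lay at 1.46. For Mbd1 and Wdr92 the other probes were thus farther from Csrp3 than the brightest one. One of the other Mbd1 probes was highest on old replicate 1 by a smaller margin (-2.06 against -3.11 to -2.36), and the remaining other probes of both genes were lowest there. Csrp3 itself has 1 probe, so no second reading of it exists on the array.

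Nearest to Ankrd2 were Mcub, a subunit of the mitochondrial calcium uniporter (0.14), the adrenergic receptor gene Adrb3 (0.16), the hair keratin-associated Krtap11-1 (0.17) and the thromboxane synthase gene Tbxas1 (0.18). Mcub and Krtap11-1 were well above background on 3 of the 6 arrays. Both were dim, at -4.79 to -3.15 and -4.66 to -3.22, and highest on old replicate 1, whose negative controls were raised. The part of background in their distances was not tested. The other Krtap11-1 probe, well above background on 2 arrays, lay at 0.61, and the other Adrb3 probe, on 0 arrays, at 0.37. Among the members themselves, the nearest pairs were Ankrd23 and Csrp1 at 0.46 and Ankrd2 and Csrp3 at 0.55, and Ankrd1 was at least 1.56 from each other member.

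**Figure D4:**
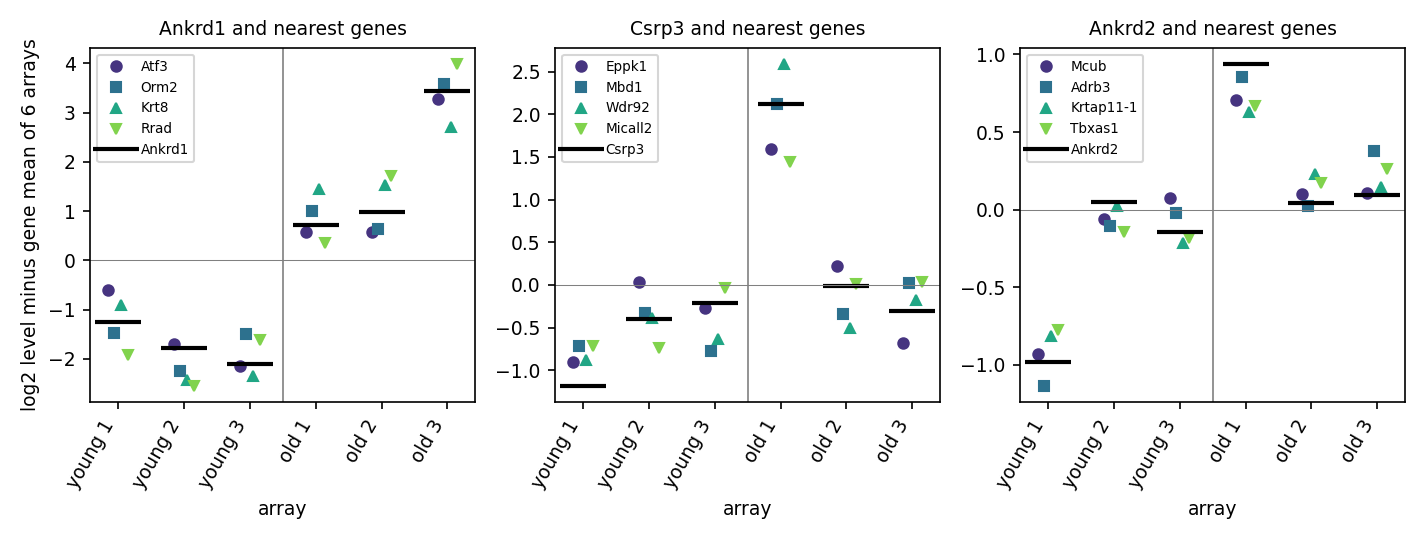
Centred log2 level on each array for Ankrd1, Csrp3 and Ankrd2 (black bars) and the 4 genes nearest to each (coloured points), with the grey line between young and old arrays. The neighbours of Ankrd1 share its high value on old replicate 3, and those of Csrp3 and Ankrd2 their high value on old replicate 1. They were chosen for closeness on these same arrays, so the shared high values follow from the choice.

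Related genes were followed in 5 lists. They cover partners of titin and the Z-disc, other LIM-domain genes, the YAP, TAZ and TEAD pathway, the SRF and MRTF pathway, and nuclear proteins that the ankyrin repeat proteins are reported to bind or regulate. No member is in a list. In every list 0 genes passed limma's test over all genes, higher or lower, against 0.254% of all genes. Before adjustment, limma's p was under 0.05 for 3, 3, 3, 2 and 3 genes of the lists in that order, and for 14.4% of all genes. The numbers tested were 22 of 22, 20 of 20, 20 of 21, 15 of 15 and 12 of 14. The median differences were 0.089, 0.052, -0.056, 0.076 and 0.16 in the same order, beside -0.062 over all genes.

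Among the titin and Z-disc partners, 14 genes had a positive and 8 a negative difference, and 4 did not overlap between the ages in each direction (7.92% of all genes higher and 13.9% lower). The actin-binding repeat protein gene Xirp1 had 1.95 ± 0.41 (adjusted p = 0.142 in limma's test). Its levels were 3.43, 2.87 and 2.56 on the young arrays and 4.60, 4.35 and 5.75 on the old ones, with old replicate 3 highest as for Ankrd1. The filamin gene Flnc had 0.73 ± 0.30, or 0.41 without old replicate 3, and Capn3, the titin-bound protease calpain 3, had -0.55 ± 0.16 (-0.60 by its other probe).

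Of the other LIM-domain genes, 10 were positive and 10 negative. Fhl1 and Fhl2, which bind titin among other partners, had differences of 0.97 ± 0.38 and 0.79 ± 0.29. Both were highest on old replicate 1, Fhl1 at 3.20 against 1.18 to 2.18 on the other arrays and Fhl2 at 2.35 against 0.72 to 1.96. Without old replicate 1 the Fhl1 difference was 0.54. Lims2, an adaptor at integrin adhesions, had -1.04 ± 0.25 (adjusted p = 0.174 in limma's test).

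In the TEAD pathway, 7 genes were positive and 13 negative. The matrix protein gene Ccn2 had -1.86 ± 0.56 (adjusted p = 0.233 in limma's test). Its levels were 4.21, 4.33 and 3.56 on the young arrays and 3.49, 1.80 and 1.25 on the old ones, which did not overlap. Tead4 had 0.95 ± 0.35 and Tead1 had -0.51 ± 0.16 (-0.83 and -0.57 by its other probes, and -0.32 within row 1 of the slide). Without old replicate 1 both Ccn2 (-2.51, adjusted p = 0.0329) and Tead4 (1.35, adjusted p = 0.0477) passed limma's test. Within row 1 of the slide they had -0.55 (adjusted p = 0.593) and 0.14 (adjusted p = 0.823) in limma's test. Over all settings the adjusted p ran from 0.0329 to 0.593 for Ccn2 and from 0.0477 to 0.823 for Tead4. Ankrd1, itself a much used target of YAP and TEAD factors, was higher in old muscle, and Ccn2 was lower. In the same list Ccn1 had 0.45 ± 0.50, with the ages overlapping, and Ajuba had 0.54 ± 0.25, while 13 genes were negative. The part of this pathway in the Ankrd1 difference was not tested.

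In the SRF and MRTF pathway, 9 genes were positive and 6 negative. The immediate early genes Junb and Fos had 1.48 ± 0.44 and 1.03 ± 0.39. Tuft1 had -0.68 ± 0.32, or -0.44 without young replicate 2 and -0.45 without old replicate 2. Junb levels ran from -3.53 to -3.08 on the young arrays and from -2.88 to -1.13 on the old ones. With normexp background correction the Junb difference was 0.63. Fos overlapped between the ages, and within row 1 of the slide it had 0.62 and Tuft1 -0.17.

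Among the nuclear partners, 7 genes were positive and 5 negative, and 4 did not overlap between the ages, with the old arrays higher (7.92% of all genes). Nfkb2, a subunit of NF-kB, came nearest to the threshold, with 1.76 ± 0.23 (adjusted p = 0.0542 in limma's test) and an adjusted p of 0.0233 to 0.198 over all settings. Its levels were 0.15, 0.38 and 0.58 on the young arrays and 1.70, 2.36 and 2.33 on the old ones. The cell cycle inhibitor gene Cdkn1a had 1.85 ± 0.60 (0.93 by its other probe, which was well above background on 2 arrays). Trp53 had 1.05 ± 0.28, or 0.58 with normexp background correction. Gata4 and Gata6 were not tested, being well above background on fewer than 3 arrays.

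**Figure D5:**
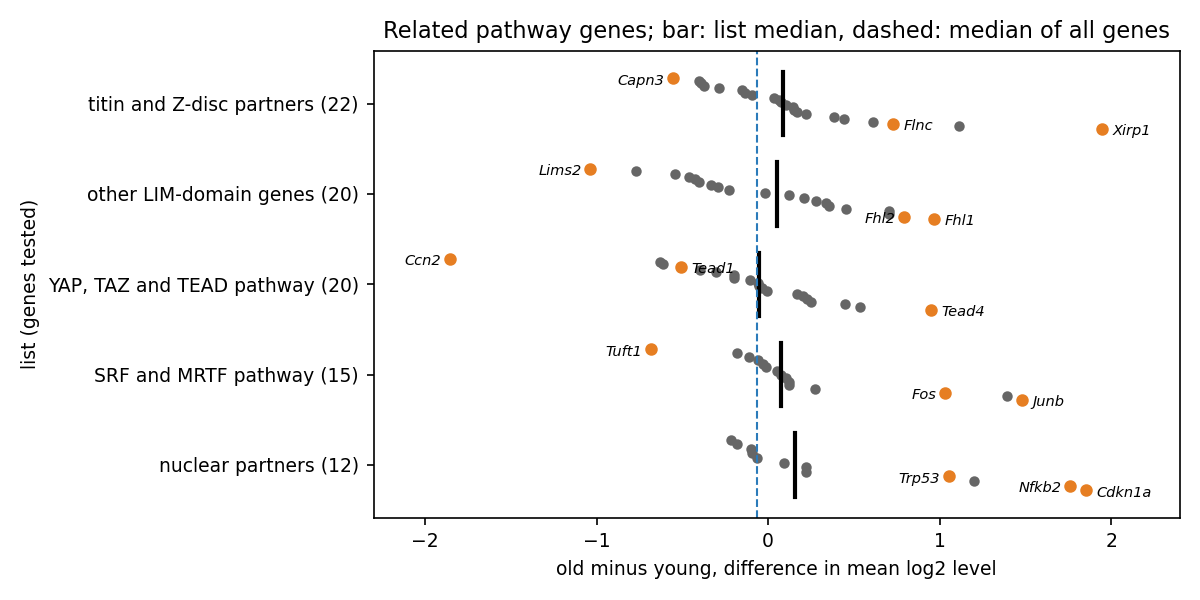
Difference between the old and young mean log2 level of every tested gene in the 5 related lists, 1 point per gene, with the named genes in orange. Black bars are list medians and the dashed line is the median of all genes, -0.062. No point passed limma's test, and Xirp1, Nfkb2 and Cdkn1a lie farthest to the right.

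Markers of fibre types and other cells were set beside the members, with levels summed over each list in multiples of the array's 75th percentile signal. All 9 slow fibre markers were measured and all had a negative difference (median -0.59), among them the slow myosin gene Myh7 (-0.66 ± 0.28) and Myl3 (-0.58 ± 0.22). Their summed level was 1379 to 1833 in young and 829 to 1266 in old muscle. The slow-fibre members Ankrd2 and Csrp3 had positive differences beside them, but both overlapped between the ages. Without old replicate 1 their differences were 0.43 and 0.44. The part of slow fibres in the members' values was not tested. The 9 fast fibre markers, which include Tnnt3 and Pvalb, had a median of -0.17. Tnni2 had no value on old replicate 3, and the other 8 summed to 4772 to 5797 in young and 4038 to 5013 in old muscle. Both sets mark the labelled tissue as skeletal muscle.

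Of the 10 markers of embryonic fibres and denervation, 9 had a positive difference and did not overlap (7.92% of all genes), with a median of 1.81. Chrng, 1 of the 10, was kept only through the old arrays and was not well above background on any young one. Mymk and Mymx, well above background on 1 and 2 young arrays and on all old ones, also passed the filter only with the old arrays. Over the markers well above background on all arrays the median was 1.83. Their median centred level was -1.03 to -0.88 on the young arrays and 0.75, 0.93 and 1.20 on old replicates 1, 2 and 3, highest on the array where Ankrd1 was highest. The summed level was 598 to 775 in young and 528 to 753 in old muscle, set largely by Myh8 (-0.18 ± 0.19). The acetylcholine receptor gene Chrna1 had 1.83 ± 0.42 (1.28 by its other probe). Their part in the Ankrd1 difference was not tested.

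Beside Csrp1 and Csrp2, 7 of 8 smooth muscle markers were measured, with a median of -0.26 and a summed level of 185 to 276 in young and 142 to 219 in old muscle. The summed level was set largely by Synm, with levels of 6.23 to 7.29. Smtn had -0.48 ± 0.27 and Synm -0.21 ± 0.29 (-0.46 to 0.27 by its other probes), and Lmod1 was not tested, being well above background on fewer than 3 arrays. The pericyte markers (6 of 6) had a median of -0.49, with Rgs5 at -0.48 ± 0.22 and Abcc9 at -0.51 ± 0.24, and summed to 54.6 to 60.2 in young and 31.2 to 48.0 in old muscle. Their part in the values of Csrp1 and Csrp2 was not tested.

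Other cell types were measured too. Median differences were -0.094 for endothelium (7 of 7 markers tested), -0.72 for fibroblasts (7 of 7), -1.42 for tendon (7 of 7), 0.55 for macrophages (7 of 8), 3.45 for neutrophils (5 of 7, of which Retnlg, the middle value, was kept only through the old arrays and was not well above background on any young one), 0.097 for satellite cells (5 of 6) and -0.60 for Schwann cells (7 of 7). Of these markers, 4 passed limma's test, named after their values were seen: S100a8 (4.80 ± 0.31) and S100a9 (4.70 ± 0.30) of neutrophils were higher, and Kera (-3.18 ± 0.33) of tendon and Prx (-1.29 ± 0.16) of Schwann cells were lower in old muscle. The brightest macrophage markers were Csf1r (-0.053 ± 0.16) and C1qc (0.55 ± 0.15), and beside S100a9 the brightest neutrophil marker was Csf3r (0.052 ± 0.16). The Schwann cell marker Mbp had 1.33 ± 0.18 (1.12 and -0.026 by its other probes), while 5 of the 7 Schwann cell markers had a negative difference. Mkx of tendon and Calcr of satellite cells, both lower in old muscle, were well above background on 3 young arrays but only 1 old array. The brightest markers were, for endothelium, Kdr (-0.36 ± 0.18) and Vwf (-0.31 ± 0.21), for fibroblasts Col1a2 (-1.54 ± 0.36) and Dcn (-0.85 ± 0.34), for tendon Scx (1.35 ± 0.40) and Thbs4 (-0.89 ± 0.24), and for satellite cells Cdh15 (0.097 ± 0.15) and Vcam1 (0.19 ± 0.25). Their part in the members' values was not tested.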

How the data were processed

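Gastrocnemius RNA in 3 samples from young and 3 from old male mice was measured on 6 single-colour arrays. Per the file headers, each spot's deposited intensity had its background and spatial trend removed in Feature Extraction 11.0.1.1 (protocol GE1_1100_Jul11), while version 9.5 is named in the submitters' processing notes. The authors' deposited value table is an intensity too. It equalled the processed signal multiplied by 100, divided by the 75th percentile of that array's spots and rounded. Its scale is therefore linear, uncentred and in the direction of the signal, with column medians of 6 to 9. Its log2(value + 1) served as an alternative.

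Control spots and outlier spots (161 to 212 per array) were left out. Log2 processed signals were averaged over the spots of a probe, and the array's 75th percentile of these was subtracted. Of 55681 probes, 28331 matched a symbol in RefSeq GRCm38.p6 through their accession. The array grid names build mm9, so coordinates come only with the RefSeq promoter sequences. A probe was kept if it was well above background on 3 or more of the 6 arrays (28013), and the brightest kept probe stood for a gene. limma 3.58.1 (lmFit, eBayes, two-sided) in R 4.3.3 compared old with young over 20907 genes, 13847 of them with a symbol, with Benjamini-Hochberg adjustment. The fit was tested on simulated data. Python 3.11.15 (numpy 2.4.6, pandas 2.3.3, matplotlib 3.10.9) made tables and figures.

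The members and lists were chosen with earlier results of these data known. Named genes were every member, the 3 genes with the lowest p and any past the threshold in each related list, the 2 brightest of each marker list (1 is not reported here), and the 4 genes nearest to each of 3 members. Alternatives changed normalization, background correction (normexp, offset 50, on median signals in place of the planned mean signals), the source of values, the dim-probe filter, the probe rule, the variance model, blocks and the arrays used.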

Additional observations from a re-analysis of the deposited data

How the results depend on the processing

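The 16 alternatives gave 96 values for the 6 members, of which 93 had the sign reported and 5 moved by more than the spread between replicates, all with the slide row as a block. Much of this count was fixed in advance. For these members the dim-probe filters, the variance model and the replicate block return the same difference. Leaving out 1 of 3 arrays always moves a group's mean by less than that group's SD. The row block gave 1.30 for Ankrd2, -0.75 for Ankrd23, 0.38 for Csrp1, -0.040 for Csrp2 and 2.71 for Csrp3. It rests on 1 old array. The replicate numbers are not known to pair the samples, and a check on 3 arrays per age cannot settle it. Same-numbered arrays correlated at -0.063, -0.27 and 0.028 in their deviations from the group means, below the best other number (0.13, 0.35 and 0.24). The replicate block cannot change the members' differences (3.42 for Ankrd1), since each number holds an array of each age. It moved the number of genes passing limma's test from 53 to 5. That number was 8 with no filter on dim probes, 35 when detection was required on all arrays, and 1 to 186 when an array was left out (10, 8 and 17 without young replicates 1, 2 and 3, and 186, 6 and 1 without old replicates 1, 2 and 3). The split of higher to lower was 41 to 12 as reported, 26 to 16 with median centring, 38 to 23 with normexp 22 to 19 with the row block and 91 to 95 without old replicate 1. Median centring moved the median of all genes from -0.062 to -0.21, so its differences are relative to a lower centre.

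Of the nuclear partners, 1 gene, Nfkb2, passed with normexp, the authors' values, probes above background on all arrays and eBayes with trend, and 0 to 1 when an array was left out. In the TEAD pathway 0 to 2 passed when an array was left out. The titin and Z-disc median (0.089) was 0.17 with quantile normalization, -0.058 with median centring, 0.035 with the row block and -0.070 to 0.16 with an array left out. That of other LIM-domain genes was -0.11 to 0.17 with an array left out, that of the SRF list (0.076) -0.071 with median centring, -0.34 with the row block and -0.16 to 0.29 with an array left out, and that of the nuclear partners 0.0088 with median centring. With the row block the medians were -0.42 for fast fibre, -0.25 for pericyte, 0.20 for endothelium and -0.88 for Schwann cell markers. Normexp gave -0.92 for tendon, 0.36 for macrophage, 1.37 for neutrophil and -0.37 for Schwann cell markers, and median centring 0.40 for macrophage and -0.75 for Schwann cell markers. The neutrophil median was 1.32 with no filter and 2.37 with probes above background on all arrays. With an array left out, medians were 1.82 to 2.28 for embryonic and denervation, -0.29 to -0.085 for endothelium, -0.89 to -0.18 for fibroblast, 2.33 to 3.80 for neutrophil and -0.81 to -0.49 for Schwann cell markers. The cause of these movements was not tested.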
